A study of Mus musculus with 6 samples.

Results

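Transglutaminases and envelope plakins are the enzymes and the scaffold of the cornified envelope, the cross-linked protein shell that replaces the plasma membrane of a dying keratinocyte. The 6 genes described here were those whose name on the array was Tgm1, Tgm2, Tgm3, Tgm5, Ppl or Evpl. They comprised 4 transglutaminases and 2 plakins, and 10 of the array's 41174 different probes carried their names, among 27845 gene names in all. Of these 10 probes, 9 passed a filter on dim signal, and every gene kept at least 1 probe. The samples were wild-type primary keratinocytes from newborn mouse epidermis, isolated together with hair follicle buds and carrying the v-ras-Ha oncogene delivered by a virus at 10 particles per cell. From 5 hours after transduction, 3 cultures were exposed to PBS and the other 3 to 5 ug/ml Anakinra, a recombinant antagonist of the interleukin-1 receptor, for 3 days with a renewal after 2 days. Both groups therefore carried the oncogene, and no culture without it was compared. The comparison addresses how blocking the interleukin-1 receptor changes RNA levels in keratinocytes that carry the oncogene.

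Transglutaminases form bonds between glutamine and lysine side chains. In the epidermis the membrane-bound enzyme transglutaminase 1 and the soluble enzymes 3 and 5 join precursor proteins such as involucrin, loricrin and the small proline-rich proteins to one another. Envoplakin and periplakin are early components of the envelope: they assemble beneath the plasma membrane with involucrin, near desmosomes, and are cross-linked there. Transglutaminase 2 is the widely expressed tissue form of the enzyme and is not specific to the epidermis.

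The cultures had the markers of their label. All 10 keratinocyte markers examined were well above background on all 6 arrays, and none passed the test between groups. The 75th percentile of the signal, on which each array was scaled, lay between 864 and 1087. The share of spots well above background was 62.5% to 71.0% in PBS, and 56.1%, 86.5% and 55.6% in Anakinra replicates 1, 2 and 3. Anakinra replicate 2 therefore stood apart for dim probes, which bears on Tgm2 and Tgm3. The Anakinra arrays were also less alike, with correlations between arrays of 0.957 to 0.983, against 0.995 to 0.997 in PBS. Array weights from limma were 1.31, 0.305 and 0.346 for Anakinra 1, 2 and 3, and 1.12, 3.27 and 1.97 for PBS 1, 2 and 3. No spot was saturated. The 6 arrays lay on 2 slides: slide 1 held Anakinra 1 together with PBS 2 and PBS 3, and slide 2 the rest.

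Tgm1 was higher in Anakinra, and it was the member that passed the test. Tgm5 differed by about as much but missed the threshold, Ppl and Evpl differed by less and did not pass, and Tgm2 and Tgm3, both dim, did not pass either. Of the 6 genes, 1 rose and 0 fell, leaving 5 below the threshold (limma, Benjamini-Hochberg adjusted p under 0.05 over 16472 genes), while 3 had an unadjusted p under 0.05, as did 16.1% of all genes tested. Among all genes tested, 0.971% were called higher and 0.801% lower. A change had a positive sign in 5 of the 6 members, against 52.3% of all genes tested. It did in 4 members with quantile scaling and in 2 with scaling on per-array medians, which moved the median of all genes to -0.32. The share of all genes with a positive sign was not computed under those scalings. The 3 Anakinra values lay above the 3 PBS values in 4 of the 6 members, against 12.5% of all genes tested. With the reported scaling the median change of all genes was 0.01 on the log2 scale. In the plot of every member probe by sample, these separations can be read directly.

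**Figure D1:**
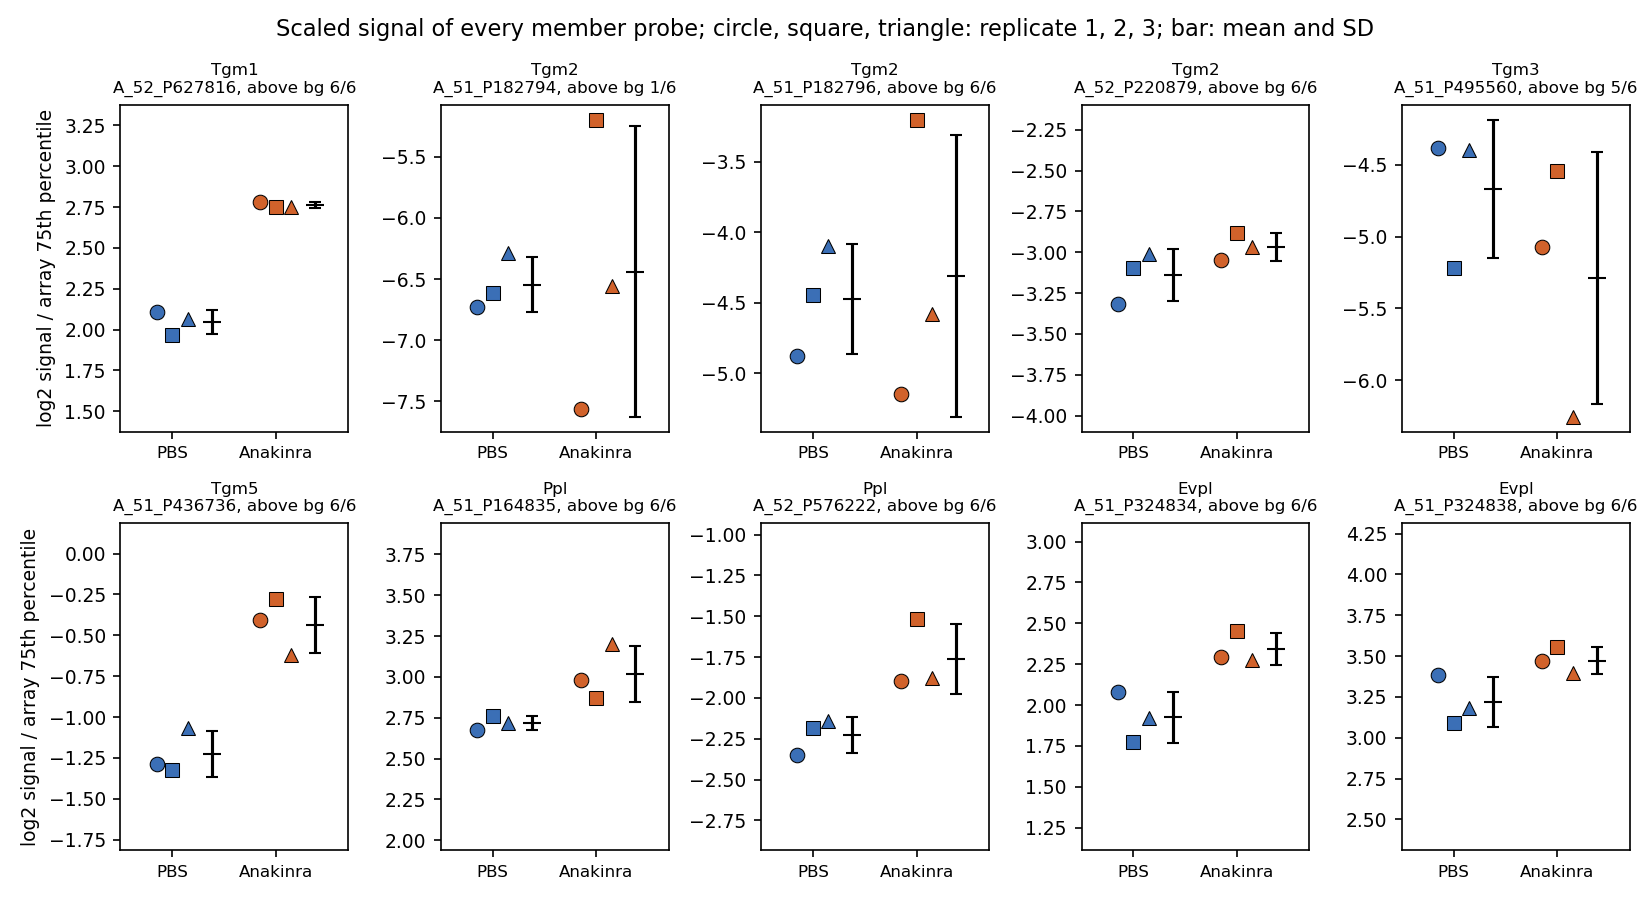
Each panel plots 1 of the 10 member probes, with the log2 of its signal relative to the array's 75th percentile on the vertical axis (each panel has its own range) and PBS and Anakinra side by side; the symbols are the replicates, the bars the mean and SD, and "above bg" counts the arrays on which the probe was well above background. The Tgm1 and Tgm5 probes separate the groups widely, the Ppl and Evpl probes narrowly, and the Tgm2 and Tgm3 probes overlap.

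Tgm1 encodes transglutaminase 1, the membrane-anchored enzyme whose loss in people causes lamellar ichthyosis. Its probe (A_52_P627816, designed on NM_019984) is placed by the array design at bases 54654325 to 54654266 of chromosome 14 in mouse build mm8. Relative to the array's 75th percentile, its signal was 4.31, 3.92 and 4.18 in PBS 1, 2 and 3. In Anakinra 1, 2 and 3 it was 6.88, 6.73 and 6.72. All Anakinra values were above all PBS values, and the Anakinra cultures were the more alike. The mean log2 level was 2.05 ± 0.07 (SD, n = 3) in PBS and 2.76 ± 0.02 (SD, n = 3) in Anakinra. The change of 0.71 ± 0.07 (SE) on the log2 scale, 1.64-fold, had a limma adjusted p of 0.0150 and a 95% confidence interval from 0.55 to 0.88. The difference was 0.77 within slide 1 and 0.64 within slide 2. With the slide as a block the change was 0.70 and did not pass (limma adjusted p = 0.0742). Leaving out PBS 1, PBS 2, PBS 3 or Anakinra 1 also ended the call (limma adjusted p of 0.0986, 0.140, 0.0975 and 0.0675), with changes from 0.67 to 0.74.

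Tgm5 encodes transglutaminase 5, an enzyme of the upper epidermis whose loss in people causes acral peeling of the skin. Its probe (A_51_P436736, designed on NM_028799) is placed at bases 120743868 to 120740588 of chromosome 2 in mm8, a span of 3281 bases. The signal relative to the 75th percentile was 0.41, 0.40 and 0.48 in PBS 1, 2 and 3, and 0.76, 0.82 and 0.65 in Anakinra 1, 2 and 3. As for Tgm1, the groups did not overlap, but the Anakinra values were spread more widely. The mean log2 level was -1.23 ± 0.14 (SD, n = 3) in PBS and -0.43 ± 0.17 (SD, n = 3) in Anakinra. The change was 0.79 ± 0.12 (SE), with a confidence interval from 0.48 to 1.10, and its limma adjusted p of 0.0556 did not pass. The difference was 0.79 within slide 1 and 0.84 within slide 2. It passed under 5 of 18 alternatives, which were normexp background correction (0.71, limma adjusted p = 0.0146), quantile scaling (0.76, adjusted p = 0.0417), the restriction to genes above background on all arrays (adjusted p = 0.0228), limma's array weights (adjusted p = 0.0416) and the authors' deposited value table (adjusted p = 0.0440). The plot of both genes under each setting shows changes between 0.64 and 0.89 under all alternatives other than the scaling on per-array medians, while the adjusted p crossed the threshold.

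**Figure D2:**
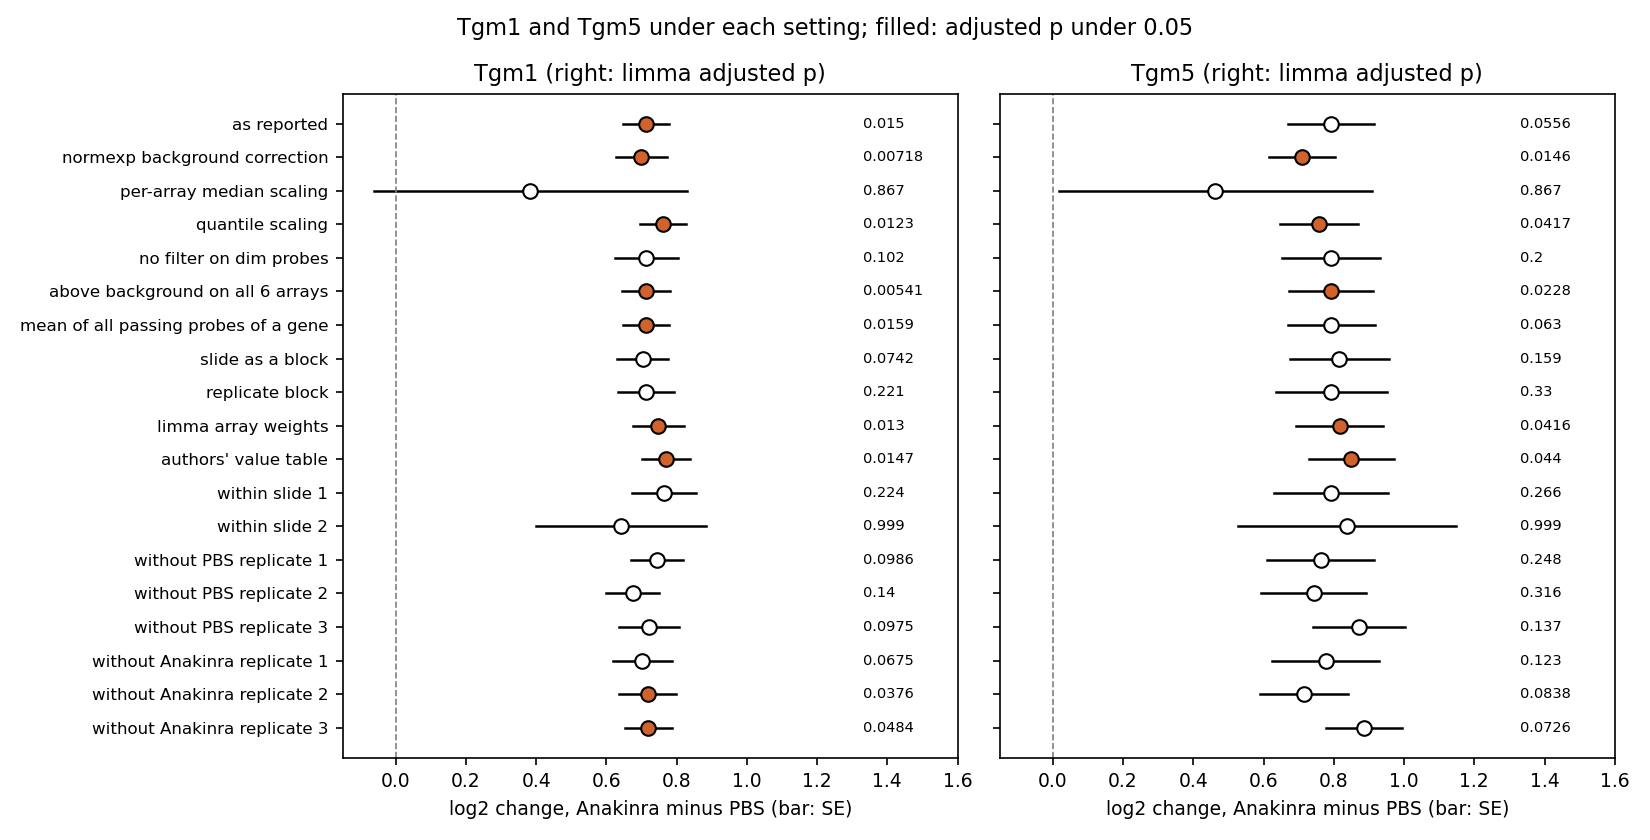
For Tgm1 (left) and Tgm5 (right), points give the log2 change of Anakinra minus PBS and bars its SE under the reported setting and 18 alternatives, with the limma adjusted p printed at the right and filled points where it is under 0.05. Tgm1 is filled in the reported setting and under 8 alternatives, Tgm5 under 5, and all values are positive; the scaling on per-array medians gives the lowest, 0.38 and 0.46.

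Since the pair with the largest positive changes is of most interest here, the bases before their transcription starts are shown. RefSeq windows on GRCm38.p6, of 250 bases before to 50 bases after a start, were at hand for 3 of the 6 members: 2 windows for Tgm1 and 1 each for Tgm3 and Tgm5. The 250 bases before the first Tgm1 start lie at chr14:55713493-55713742 and those before the Tgm5 start at chr2:121085842-121086091, both on the minus strand, written 5′ to 3′. Capitals mark matches, on either strand, to the GC box GGGCGG in Tgm1 and, in Tgm5, the first 4 bases of a match to the Grainyhead motif AACNGGTT that continues past the start.
Tgm1: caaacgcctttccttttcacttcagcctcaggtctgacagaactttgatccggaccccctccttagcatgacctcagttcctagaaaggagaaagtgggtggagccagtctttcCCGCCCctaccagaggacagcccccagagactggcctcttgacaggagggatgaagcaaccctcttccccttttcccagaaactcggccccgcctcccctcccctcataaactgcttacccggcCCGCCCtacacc
Tgm5: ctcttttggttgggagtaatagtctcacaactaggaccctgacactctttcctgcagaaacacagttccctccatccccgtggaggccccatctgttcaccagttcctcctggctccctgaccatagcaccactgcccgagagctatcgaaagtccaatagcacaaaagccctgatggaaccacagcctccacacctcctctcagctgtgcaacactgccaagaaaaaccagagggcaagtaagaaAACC
The Tgm1 matches begin at positions -136 and -12 and the Tgm5 match at -4, counted from the first transcribed base. Of 32851 such windows of 300 bases, 35.7% held the GC box and 2.09% the Grainyhead motif. The motifs of AP-1 (TGANTCA, 7.81% of windows) and NF-kB (8.46%) had no match in any of the 4 member windows. The TATA box (TATAAA, 13.6%) matched once, in Tgm3 at -28. A match is a description of letters, and none of these sites was measured.

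The plakins had changes of the same sign but smaller. With scaling on per-array medians their signs turned, to -0.03 for Ppl and -0.08 for Evpl. The median of all genes was -0.32 under that scaling, and relative to it Ppl was at 0.29 and Evpl at 0.24. Ppl, which encodes periplakin, was read by 2 probes. The brighter one (A_51_P164835, NM_008909) is placed at bases 5001656 to 5001612 of chromosome 16 in mm8. Its relative signal was 6.39, 6.76 and 6.57 in PBS 1, 2 and 3 and 7.91, 7.30 and 9.21 in Anakinra 1, 2 and 3. The groups did not overlap, and Anakinra 3 was the highest. The change was 0.30 ± 0.10 (SE), with an interval from 0.04 to 0.56 and a limma adjusted p of 0.249. The dimmer probe (A_52_P576222, designed on BC057152) is placed at bases 5012768 to 5012709 and read 0.20, 0.22 and 0.23 in PBS against 0.27, 0.35 and 0.27 in Anakinra. Here too the groups did not overlap, but Anakinra 2 was the highest, so the 2 probes ordered the treated cultures differently. In the fit of 24973 probes that probe changed by 0.46 ± 0.13 (limma adjusted p = 0.226).

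Evpl, which encodes envoplakin, the partner with which periplakin pairs, also had 2 probes, placed at bases 116036756 to 116036697 and 116037019 to 116036960 of chromosome 11 in mm8. The brighter probe (A_51_P324838) read 10.4, 8.51 and 9.09 in PBS 1, 2 and 3 and 11.1, 11.8 and 10.5 in Anakinra 1, 2 and 3. The gap between the groups was small, since PBS 1 lay just below Anakinra 3. The change was 0.25 ± 0.10 (SE), with an interval whose lower bound was just under 0 and whose upper bound was 0.51 (limma adjusted p = 0.311). The difference was 0.33 within slide 1 and 0.09 within slide 2, where PBS 1 was the control. For Ppl the corresponding values were 0.25 and 0.36. The second Evpl probe (A_51_P324834) changed by 0.42 ± 0.11 in the probe fit (limma adjusted p = 0.190), with 4.23, 3.42 and 3.78 in PBS and 4.90, 5.47 and 4.84 in Anakinra. Both probes of each plakin thus had a positive sign without passing, and whether 2 probes of a gene differed from each other was not tested.

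Tgm2, the tissue transglutaminase, was dim on all 3 of its probes. The brightest of them (A_52_P220879, bases 157808039 to 157807980 of chromosome 2 in mm8) read 0.10, 0.12 and 0.12 in PBS 1, 2 and 3 and 0.12, 0.14 and 0.13 in Anakinra 1, 2 and 3. The groups overlapped, with PBS 1 the lowest and Anakinra 2 the highest. The change was 0.17 ± 0.10 (SE), with an interval from -0.09 to 0.44 and a limma adjusted p of 0.496; it was 0.0030 within slide 1 and 0.39 within slide 2. With quantile scaling the sign turned, at -0.16 (adjusted p = 0.779). The second probe (A_51_P182796, bases 157811587 to 157810387) shares 20 bases of its placement with the third. It read 0.03, 0.05 and 0.06 in PBS and 0.03, 0.11 and 0.04 in Anakinra, so that Anakinra 2, the array with the largest share of spots above background, was far above the other treated arrays. Its change was 0.16 ± 0.54 (limma adjusted p = 0.934). The third probe (A_51_P182794) was well above background on 1 array, Anakinra 2, and was not tested.

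Tgm3 encodes transglutaminase 3, a soluble enzyme of the upper epidermis and the hair follicle, and was the dimmest member gene tested. Its probe (A_51_P495560, NM_009374) is placed at bases 129739774 to 129739833 of chromosome 2 in mm8. It read 0.05, 0.03 and 0.05 in PBS 1, 2 and 3 and 0.03, 0.04 and 0.01 in Anakinra 1, 2 and 3, where replicate 3 was not well above background. The groups overlapped. The change was -0.62 ± 0.50 (SE), with an interval from -1.89 to 0.64 (limma adjusted p = 0.609), and the gene was tested because its probe was well above background on all PBS arrays. The change ranged from -0.996 (without Anakinra 2) to -0.14 (without Anakinra 3) with 1 array left out. It was -0.13 with normexp background correction, -0.95 with scaling on per-array medians and -1.08 with quantile scaling. Of the hair follicle markers, 6 of 8 were tested and their summed signal ranged from 414 to 499 in PBS and from 426 to 451 in Anakinra, but Krt17 alone made up 96.1% to 97.5% of that sum.

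At the level of single probes, 8 of the 9 tested had a positive sign, against 53.2% of all probes. The Anakinra values lay above the PBS values on 6 of them, against 12.3% of all probes, and 1, that of Tgm1, passed (change 0.71 ± 0.07, limma adjusted p = 0.0222), against 0.609% of all probes called higher. Ranked by p among the 16472 genes, Tgm1 was number 80, Tgm5 number 311, Ppl number 1979 and Evpl number 2667.

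None of the tested relatives of these genes passed. In the rest of the transglutaminase family, Tgm4, the prostate enzyme, was at 0.03 ± 0.09 (limma adjusted p = 0.920) and Tgm6, a neuronal form above background on 4 arrays, at -0.17 ± 0.79 (adjusted p = 0.957). F13a1, the clotting factor XIII subunit, was above background on 0 arrays and Epb42, the catalytically inactive erythrocyte band 4.2, on 1, so neither was tested. None of the 5 other plakins passed, and neither did Kazn, which encodes the periplakin-binding protein kazrin, while 3 of these 6 genes (Eppk1, Dsp and Macf1) had an unadjusted p under 0.05, against 16.1% of all genes. Eppk1, epiplakin, was at 0.34 ± 0.07 (adjusted p = 0.100), Macf1, a linker of actin and microtubules, at 0.33 ± 0.12 (0.275), and Dsp, the desmosomal plakin, at 0.20 ± 0.07 (0.249). Dst, which anchors keratins at hemidesmosomes, was at 0.18 ± 0.12 (0.521), Kazn at -0.01 ± 0.08 (0.970) and Plec, plectin, at -0.14 ± 0.09 (0.556). Their median was 0.19. The 4 Dsp probes did not have one sign: 2 were positive, at 0.20 and 0.29, and 2 negative, at -0.14 and -0.02, none past the threshold.

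Many of the proteins in the next list are cross-linked by transglutaminases. Among 43 tested envelope substrates and cornified layer components there were 11 that rose and 1 that fell, the other 31 missing the threshold, and the median of the 43 was 0.43. Of all genes tested, 0.971% were called higher and 0.801% lower. The suprabasal keratin genes Krt10 and Krt1 rose by 2.40 ± 0.26 and 2.35 ± 0.19 on the log2 scale. Hrnr, the filaggrin-like protein hornerin, rose by 1.55 ± 0.14, the envelope protein sciellin (Scel) by 0.95 ± 0.10 and the small proline-rich gene Sprr2k by 0.76 ± 0.08. Another small proline-rich gene, Sprr2f, was the 1 that fell, with a change of -1.31 ± 0.13. These 6 had the smallest p in the list, with limma adjusted p-values from 0.0111 to 0.0205. Ivl, the involucrin gene, was outside that rule and is named after its values were seen, because its product is the shared partner of the plakins and transglutaminase 1; it rose by 0.61 ± 0.08 (adjusted p = 0.0321). Sprr2 and late cornified envelope genes are close copies of one another, and whether their probes tell the copies apart was not tested. The count that rose was 2 with scaling on per-array medians, 0 without the filter on dim probes, 18 with quantile scaling and 20 with genes above background on all arrays, and the count that fell was 3 with normexp background correction and with the all-array filter, and 0 with median scaling and without the filter. With the slide as a block 0 of the 43 rose and 0 fell, and with 1 sample left out between 0 and 5 rose: 0 without PBS 1, PBS 2 or Anakinra 1, 1 without PBS 3, 5 without Anakinra 2 and 4 without Anakinra 3.

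The genes of the lipid envelope list serve the supply of ceramides that become attached to the protein shell, envoplakin and periplakin among its acceptors. There were 5 tested, of which 2 rose and 0 fell, against 0.971% and 0.801% of all genes tested. The median of the 5 was 0.67. The count that rose was 0 with scaling on per-array medians and without the filter on dim probes, and 4 with normexp background correction, with the all-array filter and with the authors' value table. Sdr9c7, a dehydrogenase of acylceramide, rose by 0.88 ± 0.09 (limma adjusted p = 0.0179), and Alox12b, a lipoxygenase that oxidises acylceramide, by 0.70 ± 0.08 (adjusted p = 0.0204). Neither passed with the slide as a block, where 0 of the 5 did, and the count was also 0 without any 1 of the PBS arrays or Anakinra 1, and 1 without Anakinra 2. The plot of members and listed genes, which takes the brighter probe of each plakin, shows both within the span of the substrate list. There they lie below its median of 0.43 and below all 5 genes of the lipid list. The placing depends on the probe. In the probe fit the dimmer Ppl probe was at 0.463, above that median and above Aloxe3, the lowest of the lipid list at 0.455. The second Evpl probe was at 0.42, below both.

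**Figure D3:**
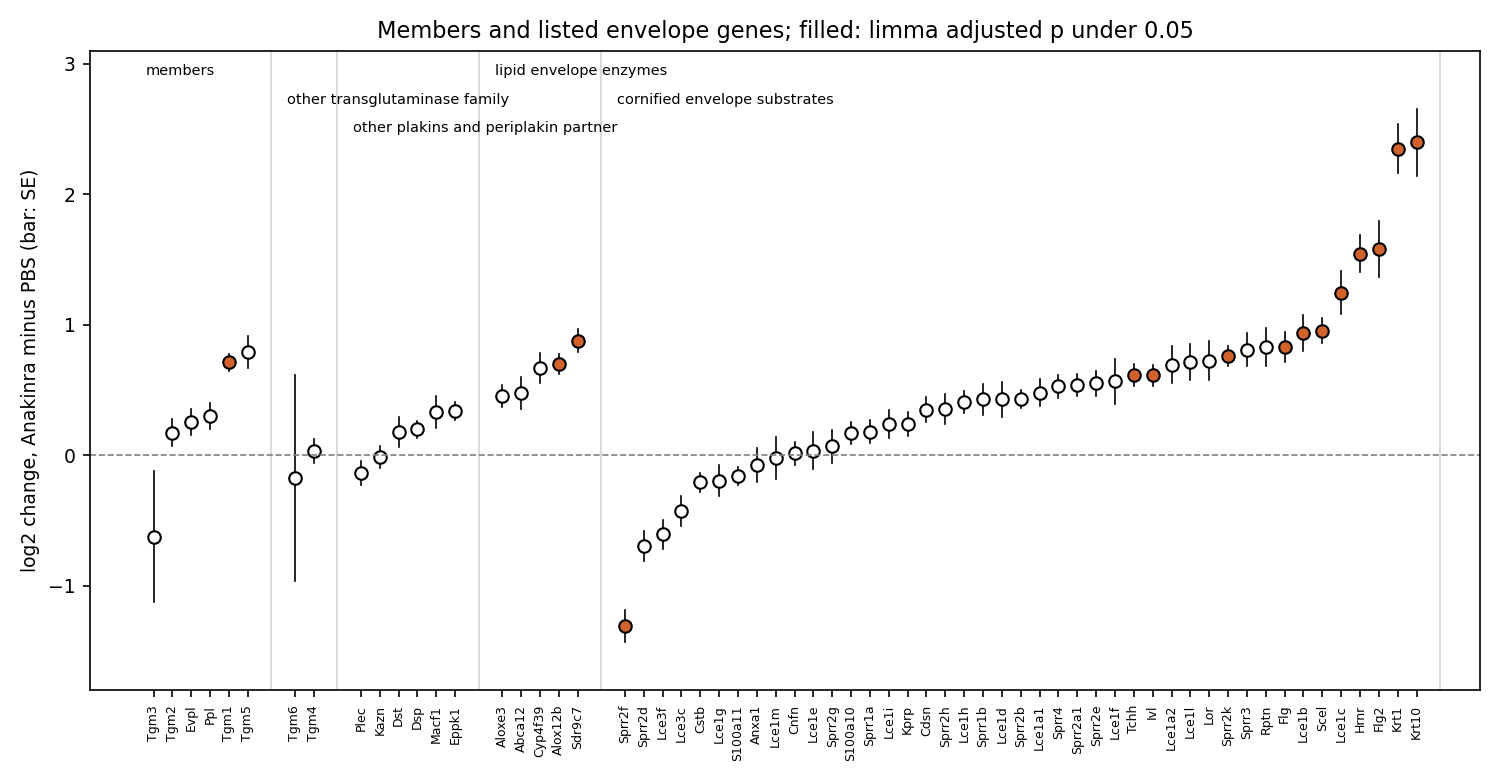
Genes are ordered within each list by their log2 change of Anakinra minus PBS (vertical axis), bars give the SE, and filled points have a limma adjusted p under 0.05. Tgm1 is the filled point among the 6 members, the other transglutaminases and plakins have no filled point, and the envelope substrates run from Sprr2f at -1.31 to Krt10 at 2.40.

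Over the 6 arrays, the genes whose scaled levels followed a member most closely were found among 14066 genes above background on all arrays (14067 for Tgm3). The points share arrays and the difference between the groups, so these correlations are a description only. The closest to Tgm1 were the transcript listed as TC1605426 (Pearson r = 0.998, change 1.01), the gasdermin gene Gsdmc (r = 0.998, change 2.04) and Csrp2 (r = 0.997, change 0.68). For Tgm5 they were Stac2 (r = 0.998), Tdh (r = 0.996) and Mpv17l (r = 0.994). For Ppl they were Abhd5 (r = 0.996), Kdm5b (r = 0.996) and Megf9 (r = 0.995), and for Evpl Ppp1r13b (r = 0.995), the gene listed as 2310050C09Rik (r = 0.989) and Pafah2 (r = 0.989). The closest to Tgm2 were Cldn6 (r = 0.996), Zfp94 (r = 0.995) and Hes2 (r = 0.988), and to Tgm3, with its signal near background, Nacc2 (r = 0.985), Recql5 (r = 0.983) and Pus1 (r = 0.980).

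Other cell types of a newborn epidermal preparation were measured beside these genes, and in such bulk RNA fewer cells of a type and less RNA per cell cannot be told apart. All 10 fibroblast markers were above background, and their summed signal was 9.28 to 11.4 in PBS and 11.8 to 13.8 in Anakinra, without overlap. Of all single genes tested, 12.5% were higher without overlap, but no such share was computed for sums of several genes. Col1a2, Col1a1 and Thy1 led the sum, with mean log2 levels in PBS of 1.91, 1.81 and 1.05. They did not pass (limma adjusted p of 0.434, 0.497 and 0.254). Lum (1.43 ± 0.15, limma adjusted p = 0.0199) and Col3a1 (0.95 ± 0.13, adjusted p = 0.0400) rose from far dimmer levels, -5.29 and -2.64. Dcn was at -0.38 ± 0.07 (adjusted p = 0.0700). Neither call held with the slide as a block (limma adjusted p of 0.0551 for Lum and 0.142 for Col3a1). Lum was at 0.51 with normexp background correction, missed the threshold with quantile scaling (adjusted p = 0.378) and did so without PBS 1, PBS 2, PBS 3 or Anakinra 3 (0.114, 0.156, 0.0970 and 0.0782). Col3a1 did not pass with any 1 array left out (0.0748 to 0.202). Keratinocyte markers had 5 positive and 5 negative changes with a median of 0.07, those with the smallest p being Perp at 0.22 ± 0.08 and Krt15 at 0.52 ± 0.19, and summed to 1466 to 1635 in PBS and 1404 to 1575 in Anakinra. Melanocyte markers, 8 of 8 tested with Kit at 0.41 ± 0.09 and Tyrp1 at 0.22 ± 0.08, summed to 90.9 to 109 and 105 to 114. All 8 had a positive sign, as did 52.3% of all genes tested, and 0 of the 8 passed. Endothelial markers, 4 of 6 tested, summed to 2.08 to 2.20 and 1.69 to 2.03, lower in Anakinra without overlap. That sum was led by Egfl7. The mean log2 level in PBS was 0.92 for Egfl7 and -2.72 for Pecam1, the next brightest. Egfl7 was at -0.26 ± 0.08 and Kdr, well above background on 4 arrays and tested through the PBS group, at -0.45 ± 0.15, while Pecam1 at 0.12 ± 0.23 and Vwf at 0.11 ± 0.24 had the other sign. Immune markers, 3 of 7 tested, summed to 2.07 to 2.31 and 1.71 to 2.24. Lyz2 led that sum, with a mean log2 level in PBS of 1.03 against -3.81 for Csf1r, the next brightest. Csf1r was at -0.33 ± 0.11 and Lyz2 at -0.19 ± 0.11, while Cd207, well above background on 5 arrays, was at 0.15 ± 1.37. The leukocyte marker Ptprc was above background on 2 arrays. Among the hair follicle markers Krt79, of the follicle opening, rose by 0.86 ± 0.06 (adjusted p = 0.00734). It did not pass without PBS 1, PBS 2 or PBS 3 (limma adjusted p of 0.0794, 0.0878 and 0.0581), with scaling on per-array medians (0.867) or without the filter on dim probes (0.0684). The other 5 tested follicle markers did not pass. Krt71 was at 0.57 ± 0.44, Gata3 at 0.30 ± 0.20 and Sox9 at 0.14 ± 0.14. Krt17 at -0.03 ± 0.09 and Lhx2 at -0.09 ± 0.08 had the other sign. The part of other cells in the values of Tgm2, which fibroblasts and endothelial cells also make, or of Tgm3 was not tested.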

How the data were processed

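Total RNA from 6 cultures was read on 6 one-colour Agilent arrays, 3 per group; groups and replicate numbers come from the sample titles. Per the file headers, the deposited intensity values were made with Agilent Feature Extraction 9.5.3.1, with spatial and multiplicative detrending within each array, local background correction off and surrogate values for very dim spots. The authors' deposited value table holds log2 values, each array's log2 intensity plus 1 constant, whose origin is unknown here. Its medians per column, for PBS 1 to 3, were 5.77, 5.83 and 6.22, and for Anakinra 1 to 3 they were 5.74, 7.00 and 6.21; its scale is log2 and its direction that of the signal.

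Here the log2 intensity minus the array's 75th percentile was used, without control spots and outlier-flagged spots. A probe was kept if every array of 1 or both groups had it well above background, with 2 values per group; the brightest passing probe stood for a gene. Names were updated through RefSeq (GRCm38.p6), with 23374 probes named by accession, 6733 by symbol, 2919 by synonym and 8148 left as in the file. Anakinra was compared with PBS with limma 3.58.1 in R 4.3.3 (lmFit, eBayes, two-sided, Benjamini-Hochberg) over all genes and, separately, all probes; the fit was tested on simulated data. Changes are Anakinra minus PBS. Lists are described by counts and medians, without a test. Members and lists were chosen with earlier results of these data known. Named by rule were all members, their tested relatives, called list genes with the smallest p (or the 2 smallest), and the 3 closest genes by correlation. Outside this rule, Ivl, Aloxe3, Sprr2d, Lce3f, Lce3c and further marker genes were named after their values were seen. The untested relatives F13a1 and Epb42 were named too. The titles do not say whether replicates were separate isolations, so p-values reflect only how far these cultures spread, possibly for technical reasons. With 3 arrays per group, their number limits the precision. No annotation of mm8 was used, so exons, introns and untranslated regions of the probes are not given.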

Additional observations from a re-analysis of the deposited data

How the results depend on the processing

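The 6 members were refitted under 18 alternatives (17 for Tgm3). Genes called higher and lower numbered 8 and 49 with per-array median scaling, 7 and 29 without the filter on dim probes, 338 and 241 with genes above background on all 6 arrays, 23 and 41 with the slide as a block, and 0 and 0 within slide 1 and within slide 2, where 1 group has a single array, so that the loss of calls there says nothing about stability. Leaving out 1 array gave 1 to 97 higher and 7 to 137 lower. Of the members, 2 were called with normexp, quantile scaling, the all-array filter, array weights and the authors' value table, and 0 with median scaling, no filter, the slide block and within either slide; leaving out 1 array gave 0 to 1. Tgm1 did not pass with median scaling (0.38), without the filter (0.71), with the slide block (0.70) or within slides (0.77 and 0.64), and ranged from 0.67 to 0.74 with 1 array left out. Tgm5 passed with normexp (0.71), quantile scaling (0.76), the all-array filter (0.79), array weights (0.82) and the authors' table (0.85). Median scaling differs from the reported scaling by 1 constant per array, and the SE was then 0.45 for every member. The cause of these shifts was otherwise not tested. Same-numbered arrays deviated from their group means with r = 0.41, -0.49 and -0.21, and PBS 3 and Anakinra 2 with r = 0.70. With 3 arrays per group, these values cannot decide whether replicate numbers pair the samples. With the replicate block, 0 genes were called higher and 0 lower, 0 members were called, and Tgm1 was at 0.71. Median scaling turned the sign of Evpl (-0.077), Ppl (-0.028), Tgm2 (-0.16; its second probe -0.17), Dsp (-0.13), Dst (-0.15), Perp (-0.11), Tyrp1 (-0.11) and Tgm4 (-0.30), and quantile scaling that of Tgm2 (-0.16; its second probe -0.14), Tgm4 (-0.081) and Kazn (0.0092). Refits of the lists and their genes, and the values relative to the median of all genes, were chosen after seeing the data. Relative to the median of all genes under median scaling, Tgm1 was at 0.70, Tgm5 at 0.78, Ppl at 0.29 and Evpl at 0.24. Tgm2 was at 0.16 and Tgm3 at -0.64 on that scale. Kazn was also positive with probes averaged (0.11), array weights (0.0060), the authors' table (0.043) and within slide 1 (0.038), and ranged from -0.057 to 0.033 with 1 array left out. Plec was at 0.010 within slide 1. Tgm4 was at -0.0078 with the slide block, -0.028 with array weights, -0.11 within slide 1 and -0.034 without Anakinra 3, the lowest with 1 array left out, where the highest was 0.11. Tgm6 was at 0.70 within slide 2 and ranged from -1.02 to 0.32 with 1 array left out. Signal near background limits Tgm2, Tgm3 and Tgm6.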

Other observations

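Not all envelope genes had a positive sign. Besides Sprr2f, the members of the substrate list with the lowest changes were Sprr2d at -0.69 ± 0.12, Lce3f at -0.60 ± 0.11 and Lce3c at -0.42 ± 0.11 (SE, n = 3 per group), with limma adjusted p-values of 0.0648, 0.0776 and 0.166. They were chosen after their values were seen, and none passed.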
